A study of Mus musculus with 6 samples.

Results

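Nuclear receptors and their coregulators were examined in C2C12 myotubes given palmitate or bovine serum albumin (BSA). The members were all probe sets whose platform annotation gave a single gene symbol of the families NR0 to NR6, PPAR, RAR, RXR, ROR, thyroid hormone, oestrogen-related, oestrogen and vitamin D receptors, of the PGC-1 and NCOA coactivators, or of corepressors such as NRIP1, with the clock receptors Nr1d1 and Nr1d2 left out. This gave 79 probe sets of 48 genes, out of 22626 probe sets that were not array controls and 12393 genes with a probe set of 1 symbol. Nr2c2ap, which encodes a protein that binds the orphan receptor TR4 (Nr2c2), entered through the first letters of its symbol and is not itself a receptor.

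C2C12 is an established mouse myoblast line, and all samples came from this line, differentiated in 2% horse serum for 5 days. The culture of all samples is also described with 20% fetal bovine serum. The control group was 3 arrays of myotubes given 1% BSA for 16 h, and the treated group was 3 arrays of myotubes given 500 µM palmitate, a saturated fatty acid that per the design text was bound to fatty acid-free BSA, for 16 h. Nothing in the labels ties the numbered replicates to separate dishes, and the p-values speak for the spread among these arrays alone, part of which can be technical. Values are MAS 5 signals on a linear scale, 1 per probe set.

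Nuclear receptors are transcription factors that bind DNA as monomers, homodimers or heterodimers with RXR, and most are switched by small lipophilic ligands. Ligand exchanges corepressors such as NRIP1 for coactivators such as the p160 proteins (NCOA1 to NCOA3) and the PGC-1 family. In muscle, PPAR and ERR receptors with PGC-1 drive genes of fatty acid oxidation and mitochondria, thyroid hormone receptors set contractile and metabolic gene programmes, and the NR4A receptors, which act without a known classical ligand, are immediate-early genes switched on by cAMP, calcium and stress kinases.

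Upstream sequences of the NR4A genes are shown first, of which only Nr4a1 was called higher with palmitate in the results below. They are from RefSeq (mouse build GRCm38.p6), each as the 250 bases before the annotated start, 5′ to 3′ on the strand of the gene. They show how the NR4A genes carry the core TGACG of the cAMP response element, on either strand, in capitals: chr15:101266596-101266845 (plus strand) for Nr4a1, chr2:57124004-57124253 (minus strand) for Nr4a2 and chr4:48045055-48045304 (plus strand) for Nr4a3.
Nr4a1: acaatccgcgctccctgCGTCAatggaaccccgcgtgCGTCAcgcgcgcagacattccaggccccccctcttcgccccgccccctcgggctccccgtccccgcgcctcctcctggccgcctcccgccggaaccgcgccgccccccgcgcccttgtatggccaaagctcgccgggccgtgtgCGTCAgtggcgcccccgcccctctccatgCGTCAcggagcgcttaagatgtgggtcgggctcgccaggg
Nr4a2: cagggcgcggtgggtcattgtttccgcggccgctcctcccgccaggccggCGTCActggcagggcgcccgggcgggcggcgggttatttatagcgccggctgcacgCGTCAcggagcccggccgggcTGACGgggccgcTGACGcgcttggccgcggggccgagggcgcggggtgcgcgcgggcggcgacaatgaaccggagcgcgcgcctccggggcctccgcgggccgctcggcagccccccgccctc
Nr4a3: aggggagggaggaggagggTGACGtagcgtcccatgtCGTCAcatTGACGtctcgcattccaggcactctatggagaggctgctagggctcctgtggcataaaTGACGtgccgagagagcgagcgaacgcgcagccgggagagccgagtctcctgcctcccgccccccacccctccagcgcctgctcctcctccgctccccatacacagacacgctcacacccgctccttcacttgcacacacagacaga

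Each of these windows held 4 copies of TGACG on either strand. In Nr4a1 the first bases of the copies lay at -233, -213, -69 and -40 from the start, and in Nr4a2 at -200, -144, -123 and -111. At least 4 copies were present in 45 of 32851 windows of the same length over all genes (0.137%), and at least 1 in 5836 (17.8%). Windows were found for 42 of the 48 genes, 65 in all, and 14 of these 65 (21.5%) held TGACG, while the full element TGACGTCA (which contains TGACG on both strands) was in 0 of the 65 and in 1.55% of all windows. The receptor hexamer AGGTCA was in 12 of the 65 (18.5%, against 14.0% of all windows). None of the 3 NR4A windows held AGGTCA. The window of Nr2c2ap, the other member called higher with palmitate, held 0 copies of TGACG. Whether the copies bear on expression was not tested. A match is a description of these letters, not a binding site.

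The vitamin D receptor gene Vdr is shown because both of its probe sets fell, with the GC box GGGCGG in capitals, a motif added after the window had been seen. Its window is chr15:97908297-97908546 (minus strand).
Vdr: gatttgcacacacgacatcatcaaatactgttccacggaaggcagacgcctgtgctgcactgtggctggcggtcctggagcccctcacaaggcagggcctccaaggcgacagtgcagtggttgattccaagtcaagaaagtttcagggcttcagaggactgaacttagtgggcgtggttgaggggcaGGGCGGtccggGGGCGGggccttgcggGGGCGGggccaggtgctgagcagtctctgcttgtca

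The Vdr window held 3 copies of GGGCGG on either strand, and neither TGACG nor AGGTCA. At least 3 copies were present in 8.47% of all windows. Among member windows 44.6% held GGGCGG, against 32.7% of all windows. Member windows were also richer in G and C (median 59.6%, against 52.4% over all windows), and the shares were not adjusted for this. Thra is named without sequence.

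A probe set was tested where its mean log2 signal over the 6 arrays lay above the 40th percentile (a signal of 267.1), and is called dim otherwise. Of the 79 member probe sets 41 passed, covering 27 genes, and 38 were dim. For 21 genes every probe set was dim (Ppara, Ppard, Pparg, Ppargc1a, Nr4a3, Nr0b1, Nr0b2, Nr1h3, Nr1h4, Nr1i2, Nr1i3, Nr5a1, Nr5a2, Rara, Rarb, Rxrg, Rorb, Esr1, Esr2, Esrrb and Ncoa2). Where a gene had several probe sets they are called first, second and so on in order of falling mean log2 signal. Detection calls were not used here, so a dim signal does not say that a transcript is absent. Within-group SDs of the log2 signal had a median of 0.33 over the tested member probe sets and 1.16 over the dim ones, so that dim members carry little information on a change.

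**Figure D1:**
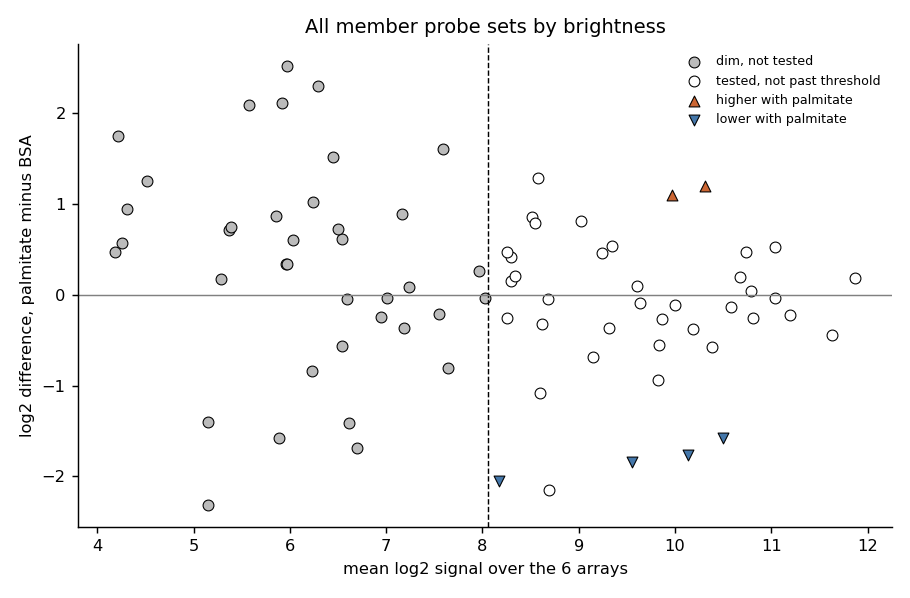
Log2 difference between palmitate and BSA (vertical) against mean log2 signal over the 6 arrays (horizontal) for all 79 member probe sets. The dashed line is the filter at a signal of 267.1, and the grey dim probe sets to its left spread from -2.31 to 2.52.

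Few of the tested member genes passed an adjusted p of 0.05. With each gene taken by its probe set of highest mean log2 signal, Nr4a1 and Nr2c2ap rose and Thra and Vdr fell, 4 of 27 genes (14.8%), by limma with Benjamini-Hochberg adjustment over 13575 probe sets. Over all 7931 genes tested 20.2% passed (7.92% higher and 12.3% lower), so the share among the members was no larger than the background. By probe sets the members had 2 higher and 4 lower of 41 (14.6%), against 19.2% of all probe sets (8.63% higher and 10.6% lower). The other 23 genes ran from -1.08 to 0.79 on the log2 scale. The median log2 fold change of the 27 genes was -0.088, and that of all genes tested -0.051. Without regard to sign the medians were 0.44 for the 27 genes and 0.34 for all genes tested. The 2 groups did not overlap for 10 of the 27 genes (37.0%), against 38.3% of all genes and 37.2% of all probe sets. At an unadjusted p under 0.05 there were 9 of the 27. The share of all genes at that unadjusted level was not counted, here or for the lists below.

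**Figure D2:**
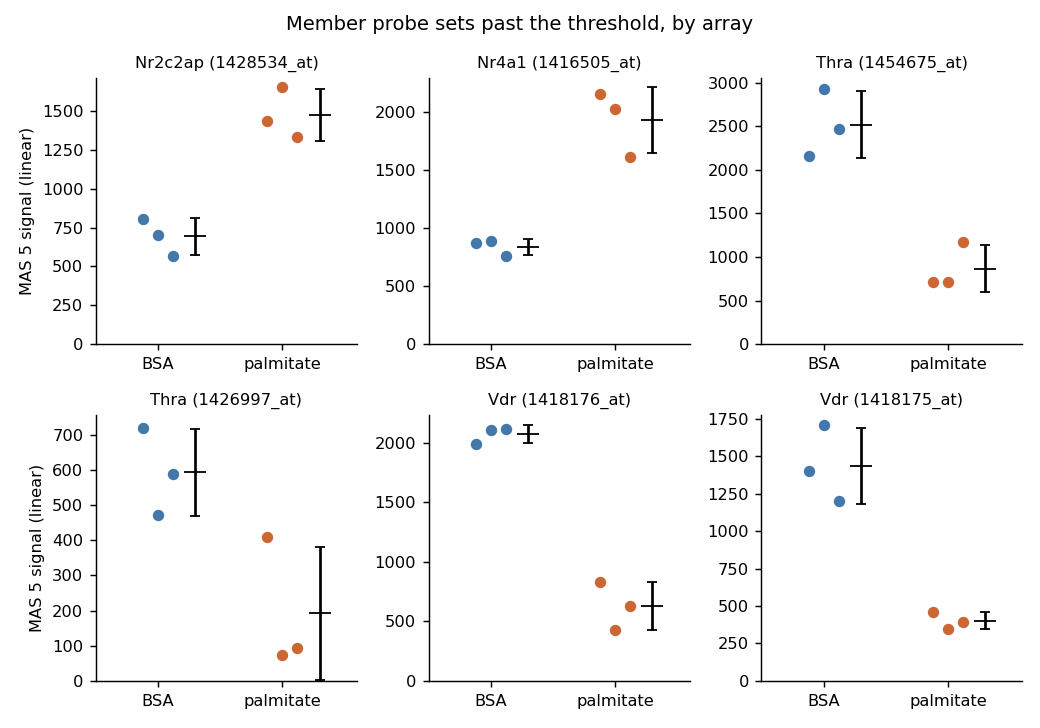
MAS 5 signal (linear axis from 0) on each of the 3 BSA arrays and 3 palmitate arrays for the 6 member probe sets that passed the threshold, with the mean and SD beside the points. In all 6 panels the palmitate arrays lie on 1 side of the BSA arrays.

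The NR4A family was led by Nr4a1 (Nur77), an immediate-early orphan receptor. Its signals were 872, 886 and 762 on the BSA arrays and 2162, 2026 and 1613 on the palmitate arrays, so every palmitate array was well above every BSA array. The mean rose from 840 ± 67.9 to 1934 ± 286 (SD, n = 3), or 2.29-fold, a log2 fold change of 1.20 ± 0.20 (SE, limma adjusted p = 0.00135). It kept its call on leaving out any 1 array (log2 fold change 1.11 to 1.32, adjusted p up to 0.00821).

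Nr4a2 (Nurr1), the family member known from dopamine neurons and also an immediate-early gene, was measured by a pair of probe sets and did not pass. On the first the BSA arrays read 473, 499 and 666 and the palmitate arrays 838, 864 and 669, a log2 difference of 0.54 ± 0.26 (adjusted p = 0.169). On the second the BSA arrays read 523, 241 and 482 and the palmitate arrays 744, 630 and 697 (0.81 ± 0.34, adjusted p = 0.117). The groups did not overlap on either probe set, but the gap on the first was only that between 666 and 669. Nr4a3 (NOR-1), the third family member, was dim throughout. Its first probe set read 56.1, 57.3 and 52.7 with BSA and 102, 57.7 and 58.1 with palmitate, and the second read 10.9, 11.9 and 8 against 24.9, 67.4 and 23.8. The palmitate arrays were higher on both. These lie far below the filter, and in a fit without the filter neither passed (adjusted p = 0.867 and 0.307).

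Nr2c2ap rose to a similar extent. Its signals were 807, 705 and 570 with BSA and 1437, 1655 and 1332 with palmitate, 2.14-fold higher and with no overlap (log2 fold change 1.10 ± 0.22, adjusted p = 0.00433). The gene span of Nr2c2ap overlaps that of Rfxank in the RefSeq gene table of GRCm38.p6. Its partner receptor Nr2c2 (TR4) was at -0.37 ± 0.27 (adjusted p = 0.377) on its first probe set and at -0.32 ± 0.33 (adjusted p = 0.556) on its second, and its relative Nr2c1 (TR2) at -0.088 ± 0.26 (adjusted p = 0.849). Neither receptor passed.

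Among receptors that pair with RXR, Thra and Vdr fell. Thra encodes the thyroid hormone receptor alpha, the main form in skeletal muscle. On its first probe set it read 2159, 2931 and 2465 with BSA and 709, 713 and 1174 with palmitate, so that the highest palmitate array was far below the lowest BSA array. The fall was 2.97-fold (log2 fold change -1.57 ± 0.23, adjusted p = 0.000692). The second probe set read 720, 472 and 587 against 410, 73.8 and 93.2 (-2.05 ± 0.60, adjusted p = 0.0318), with a narrow gap between 472 and 410. Its call was lost without BSA 1, BSA 2, BSA 3, palmitate 2 or palmitate 3 (0.0753 to 0.104), and 2 of its palmitate arrays lay below the filter's signal. The gene span of Thra overlaps that of Nr1d1 in the RefSeq gene table, and Nr1d1 was at 0.58 ± 0.24 (adjusted p = 0.122), the opposite sign. The other thyroid hormone receptor gene, Thrb, read 376, 252 and 182 with BSA and 282, 392 and 420 with palmitate, with overlapping groups (0.47 ± 0.42, adjusted p = 0.474).

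Vdr, the receptor of the active form of vitamin D, had the lowest log2 fold change among the 27 representative probe sets. On the first probe set the BSA arrays read 1986, 2112 and 2118 and the palmitate arrays 835, 428 and 632. On the second they read 1402, 1706 and 1199 against 460, 346 and 396. Every palmitate array was below every BSA array on both probe sets. The fall was 3.40-fold on the first (log2 fold change -1.77 ± 0.25, adjusted p = 0.000469) and 3.57-fold on the second (-1.84 ± 0.24, adjusted p = 0.000319), and both calls held on leaving out any 1 array (adjusted p up to 0.00446).

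Genes listed here as markers of fibroblasts or undifferentiated myoblasts moved in the same comparison, though the sample titles name C2C12 myotubes alone. Whether these transcripts came from cells other than myotubes was not tested. Of 6 fibroblast genes (Pdgfra, Pdgfrb, Col1a1, Col1a2, Dcn, Lum), the 5 tested all fell, and the summed signal of the list was 49952 to 60227 with BSA and 15674 to 16060 with palmitate. The myoblast list (Pax7, Myf5, Myod1) summed to 7435.5 to 7964 against 3800.3 to 4436, with Myod1 lower (-1.33 ± 0.16), Myf5 not past the threshold (-0.24 ± 0.28, adjusted p = 0.603, overlapping groups) and Pax7 dim. All 12 myotube markers lay above the filter and 0 of them passed with limma (2 at an unadjusted p under 0.05). Those 2 were lower, Actn2 at -0.94 ± 0.34 (adjusted p = 0.0758, no overlap) and Ttn at -0.68 ± 0.26 (adjusted p = 0.0895, overlapping groups). Mb and Tnnt1 were at -0.62 and -0.55, while Acta1, Tnnc1, Myh3 and Des lay at 0.037 to 0.083. The summed signal, in which Acta1, Tnnc1 and Myog weigh most, was 111736 to 178959 with BSA and 129085 to 137003 with palmitate. Whether the lower Thra and Vdr signals are tied to the falls of the fibroblast and myoblast genes was not tested. In RNA from a whole culture fewer cells of a type and less transcript per cell cannot be told apart. No marker passed with limma among the lists of adipocytes (Retn tested, Adipoq, Fabp4 and Cidec dim), osteoblasts (2 tested) and macrophages (3 tested). Only 1 had an unadjusted p under 0.05, the macrophage receptor gene Csf1r (1.26 ± 0.47, adjusted p = 0.0805). The other tested macrophage genes went the other way without overlap, Adgre1 at -0.53 ± 0.32 (adjusted p = 0.277) and Cd14 at -0.29 ± 0.24 (adjusted p = 0.430).

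The retinoid receptors did not pass. Rxra, the common heterodimer partner, read 1346, 900 and 873 with BSA and 679, 1126 and 804 with palmitate on its first probe set (-0.26 ± 0.26, adjusted p = 0.532). On the second it read 531, 62.5 and 435 against 1173, 410 and 440, which gave 1.29 ± 0.71 (adjusted p = 0.234), and without BSA 2 this value was 0.31. Rxrb was at 0.20 ± 0.21 (adjusted p = 0.546) and the retinoic acid receptor gene Rarg at -0.25 ± 0.19 (adjusted p = 0.396, and 0.42 ± 0.69 on its second probe set). Rxrg, Rara and Rarb were dim. Of the ROR receptors, which bind DNA as monomers, Rora read 306, 311 and 286 against 346, 237 and 508 (0.21 ± 0.40, adjusted p = 0.764) and Rorb was dim.

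**Figure D3:**
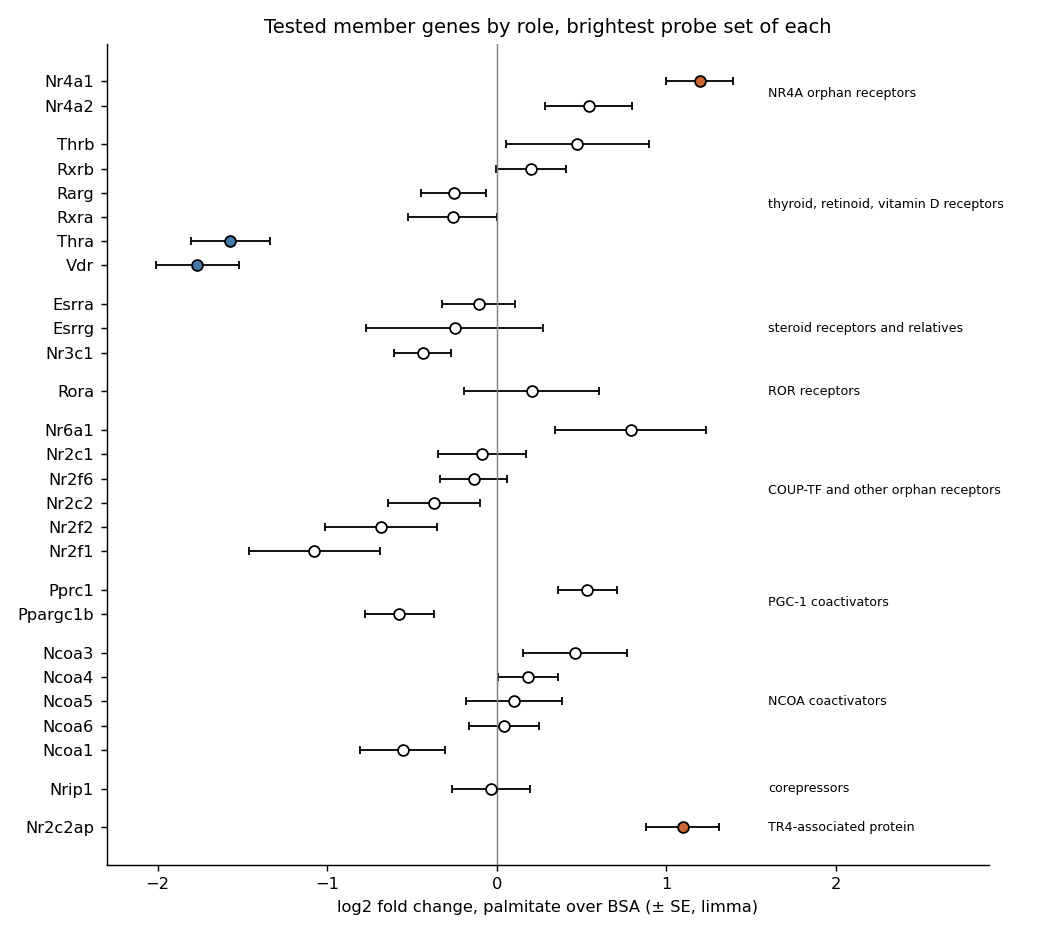
Horizontal axis, log2 fold change with palmitate relative to BSA and its limma SE (n = 3 arrays a group), for the 27 tested member genes, grouped by role. Filled points passed the adjusted threshold of 0.05, and they are Nr4a1 and Nr2c2ap on the right and Thra and Vdr on the left.

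The glucocorticoid receptor gene Nr3c1, whose product represses inflammatory genes and drives muscle protein loss, gave opposite values on its 3 probe sets. On the first it read 4073, 3388 and 3674 with BSA and 2280, 2893 and 3091 with palmitate, all palmitate arrays lower (-0.44 ± 0.17, adjusted p = 0.0941). On the third it read 187, 350 and 303 against 477, 544 and 456, all palmitate arrays higher (0.86 ± 0.37, adjusted p = 0.127). The second overlapped (-0.22 ± 0.20, adjusted p = 0.494). None of the 3 passed. The difference in log2 fold change between the first and the third was -1.30 (exact permutation p = 0.1, two-sided, the smallest that 3 arrays against 3 allow). Over the 15 pairs of tested probe sets of the same gene, 5 differed in sign, and none had a Benjamini-Hochberg adjusted p under 0.05, which this design could not give. Which exons these probe sets cover was not examined.

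The oestrogen-related receptors, which act with PGC-1 on mitochondrial genes, showed no call. Esrra read 1022, 1173 and 1010 with BSA and 815, 1011 and 1177 with palmitate (-0.11 ± 0.21, adjusted p = 0.772), with all BSA arrays inside the range of the palmitate arrays. Esrrg was at -0.25 ± 0.52 (adjusted p = 0.783). Esrrb, Esr1 and Esr2 were dim. Among the 3 tested steroid receptors and relatives 1 had an unadjusted p under 0.05, Nr3c1.

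Of the COUP-TF receptors, orphan factors of mesenchymal and vascular development, Nr2f1 (COUP-TFI) read 452, 573 and 684 with BSA and 210, 209 and 430 with palmitate. The groups did not overlap, and the value of -1.08 ± 0.39 had an adjusted p of 0.0725. Without palmitate 3 it passed, at -1.42 (adjusted p = 0.0361). Nr2f2 (COUP-TFII) read 682, 680 and 806 against 279, 492 and 658 on its first probe set (-0.68 ± 0.33, adjusted p = 0.175) and was at -0.046 ± 0.32 on its second. Nr2f6 was at -0.14 ± 0.20 (adjusted p = 0.681) on its first probe set. The second read 1057, 735 and 846 against 26.9, 380 and 745 (-2.14 ± 0.90, adjusted p = 0.121), where the value rests largely on palmitate 1 (-0.71 without it). That probe set passed without palmitate 3 (-3.11, adjusted p = 0.0303) and under scaling to hybridisation controls (adjusted p = 0.0158), and the groups overlapped. The germ cell nuclear factor gene Nr6a1 was at 0.79 ± 0.45 (adjusted p = 0.246).

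The fatty acid receptors of the PPAR group could not be followed on these arrays. Ppara read 43.1, 11.1 and 6 with BSA and 39.7, 39.9 and 13.1 with palmitate. Ppard read 11.4, 10.4 and 31.2 against 33.5, 22.5 and 13.1. Both were dim with overlapping groups. Pparg, the adipogenic form, read 243, 225 and 24.5 against 333, 261 and 438, with all palmitate arrays higher, but BSA 3 set most of the log2 difference of 1.61. The oxysterol receptor gene Nr1h3 (LXR alpha) was dim as well, at 202.5, 11.5 and 58.5 against 345, 44.9 and 205. So were the bile acid and xenobiotic receptors Nr1h4, Nr1i2 and Nr1i3.

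Several known target genes of these receptors passed. All gene lists here were chosen with earlier results of these data known, so their shares are not independent support. The lists also share genes, so their counts are not separate. Besides Lpl, the PPAR list shares Acadm and Ucp2 with the PGC-1 and ERR list and Ucp3 with the thyroid hormone list. The glucocorticoid list shares Fkbp5 with the chaperones, Klf9 with the thyroid hormone list, and Per1 and Dusp1 with the immediate-early list. Of all genes tested 7.92% were higher and 12.3% lower, with a median of -0.051. Of 17 tested PPAR targets 4 rose and 3 fell (41.2% called), with the lipid droplet protein gene Plin2 at 2.04 ± 0.12, the lipase inhibitor gene Angptl4 at 1.62 ± 0.15, the pyruvate dehydrogenase kinase gene Pdk4 at 0.94 ± 0.22 and the lipase gene Lpl at -1.16 ± 0.21. Of 11 LXR targets 4 fell and 0 rose (36.4% called, and 4 had an unadjusted p under 0.05). They were the ubiquitin ligase gene Mylip, whose product degrades the LDL receptor (-1.09 ± 0.17, adjusted p = 0.000931), Lpl, which both lists hold, the cholesterol exporter gene Abcg1 (-1.06 ± 0.27, adjusted p = 0.0180) and the phospholipid transfer protein gene Pltp (-0.50 ± 0.16, adjusted p = 0.0453). On leaving out 1 array, Abcg1 lost its call in the absence of BSA 1, BSA 2 or palmitate 1 (highest adjusted p = 0.0607), and Pltp kept its call only in the absence of BSA 1 (highest adjusted p = 0.176). Without BSA 2 the counts of lower genes were 1 of the PPAR targets and 2 of the LXR targets, and without palmitate 1 the latter was also 2. The medians were -0.24 for PPAR targets and -0.27 for LXR targets. Among the 17 PPAR targets 8 had an unadjusted p under 0.05.

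The PGC-1 coactivators, which dock on PPAR, ERR and nuclear respiratory factors to raise mitochondrial genes, did not pass, with a pair of members on opposite sides. Pprc1 (PRC), the serum-inducible member, read 1828, 1882 and 1538 with BSA and 2809, 2566 and 2226 with palmitate, all palmitate arrays higher. Its value of 0.53 ± 0.17 (1.45-fold) had an adjusted p of 0.0515, just over the threshold, and 0.0606 to 0.169 on leaving out 1 array. It passed when the probe sets of each gene were averaged (adjusted p = 0.0346) and under a 60th percentile filter (adjusted p = 0.0389), which both tested fewer values. Ppargc1b (PGC-1 beta) read 1564, 1744 and 1598 against 1251, 868 and 1218, all palmitate arrays lower. It stood at -0.57 ± 0.20 with an adjusted p of 0.0679, and passed at 0.0472 with averaged probe sets.

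Ppargc1a (PGC-1 alpha), the member induced by exercise and cold, had 5 probe sets, all dim. The first read 124, 372 and 176 with BSA and 116, 288 and 158 with palmitate, with overlapping groups and a log2 difference of -0.21. On the probe set with the lowest log2 difference the values were 118, 172 and 200 against 96.8, 24.3 and 93, lower on all palmitate arrays (-1.41). The other 3 had log2 differences of 0.72, 0.87 and 2.09 with overlapping groups. The 5 probe sets thus gave no common direction. Of 16 tested PGC-1 and ERR targets 1 rose, the growth factor gene Vegfa (0.60 ± 0.18), and 1 fell, the acyl-CoA dehydrogenase gene Acadm (-0.63 ± 0.15). The median was -0.13, and 12.5% were called against 20.2% of all genes, while 7 of the 16 had an unadjusted p under 0.05. The succinate dehydrogenase gene Sdhb (-0.38 ± 0.13, adjusted p = 0.0668) and the fumarase gene Fh1 (-0.54 ± 0.20, adjusted p = 0.0816) did not pass. Vegfa kept its call only in the absence of palmitate 2 (highest adjusted p = 0.121), and Acadm lost its call in the absence of BSA 2 (adjusted p = 0.0700).

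**Figure D4:**
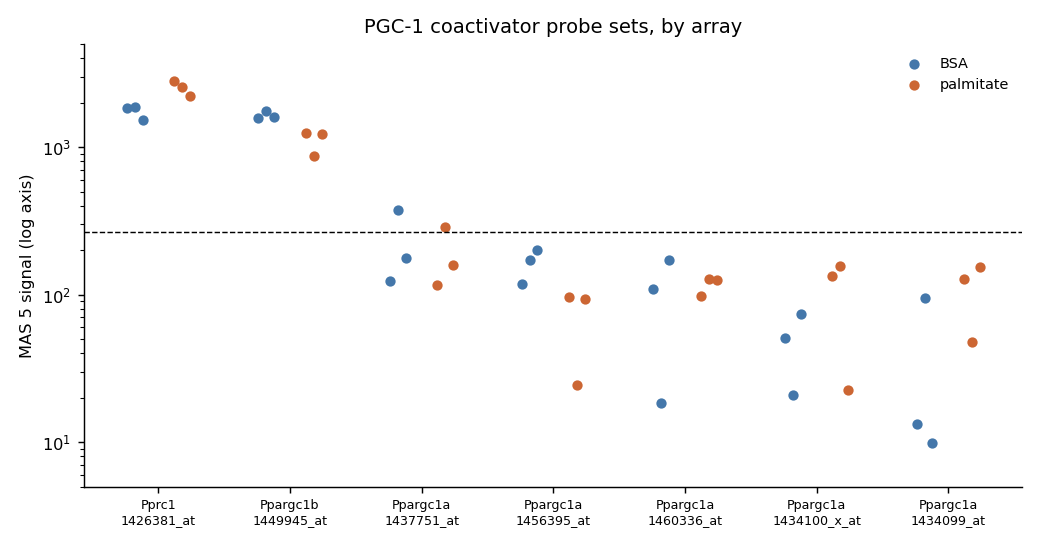
MAS 5 signal (log axis) on each array for the 7 probe sets of the PGC-1 coactivators, with the dashed line at the filter's signal of 267.1. Pprc1 and Ppargc1b lie above it with groups that do not overlap, and most points of the 5 Ppargc1a probe sets lie below it.

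The NCOA coactivators did not pass, with 1 of 5 tested genes at an unadjusted p under 0.05. Ncoa1 (SRC-1), a p160 histone acetyltransferase adaptor, had lower means with palmitate on both probe sets. It read 1329, 1211 and 841 against 934, 614 and 744 on the first (-0.56 ± 0.25, adjusted p = 0.149). On the second it read 1269, 1681 and 922 against 455, 573 and 1080 (-0.93 ± 0.33, adjusted p = 0.0663), and the groups overlapped on both. Averaged over its probe sets it passed at -0.75 (adjusted p = 0.0469), and the second probe set alone passed without palmitate 3 (adjusted p = 0.0158) or BSA 3 (adjusted p = 0.0478). Ncoa4, which carries ferritin to autophagosomes besides its receptor role, read 1390, 1631 and 1333 against 2093, 2146 and 1800 on its second probe set, without overlap (0.47 ± 0.18, adjusted p = 0.0852) but was at 0.18 ± 0.18 on its first. Ncoa3, Ncoa5 and Ncoa6 were at 0.46, 0.099 and 0.042, and Ncoa2 was dim. The corepressor gene Nrip1 (RIP140), which restrains oxidative genes in muscle, was at -0.034 ± 0.23 (adjusted p = 0.940) on its first probe set, with overlapping groups. On the second it was at -0.37 ± 0.21 (adjusted p = 0.237), where the palmitate arrays read 1226, 1008 and 866 and the BSA arrays 1246, 1489 and 1252, just without overlap (adjusted p = 0.0493 under scaling to hybridisation controls).

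Coregulators outside these families were looked at as a list of 30, of which 26 were tested. The acetyltransferase gene Kat2b (PCAF, -1.23 ± 0.22, adjusted p = 0.00209), Tbl1xr1, a subunit of the NCOR corepressor complex (-1.02 ± 0.22, adjusted p = 0.00724), and the SWI/SNF subunit gene Smarcd3 (-0.70 ± 0.21, adjusted p = 0.0323) fell, and 0 rose, at a median of 0.0088 (-0.32 under the scaling to hybridisation controls described at the end). The RNA helicase gene Ddx17 was at -0.38 ± 0.13 (adjusted p = 0.0587). The share past the threshold was 11.5%, against 20.2% of all genes, and 6 of the 26 had an unadjusted p under 0.05. Smarcd3 kept its call only in the absence of BSA 2 (highest adjusted p = 0.0988).

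Chaperones that hold steroid receptors ready for hormone were higher in 4 of 12 cases with 0 lower (33.3%, against 7.92% higher among all genes), at a median of 0.38 (0.049 under scaling to hybridisation controls). These were Dnajb1 (1.37 ± 0.14), Hsp90aa1, the inducible HSP90 (0.71 ± 0.14), Dnaja1 (0.52 ± 0.15) and Hspa8 (0.38 ± 0.12), and 7 of the 12 had an unadjusted p under 0.05. Dnaja1 and Hspa8 both lost their calls in the absence of BSA 1, BSA 3, palmitate 1 or palmitate 3, and Dnaja1 also in that of BSA 2 (highest adjusted p = 0.161). Without BSA 3 or palmitate 1 the count was 2.

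Genes known as glucocorticoid receptor targets moved both ways, 8 higher and 5 lower of 20 tested (65.0% called, against 20.2% of all genes), and the median of 0.23 turned to -0.11 under scaling to hybridisation controls. The AMP deaminase gene Ampd3 (2.06 ± 0.16), the EGFR inhibitor gene Errfi1 (1.18 ± 0.17) and the metallothionein genes Mt1 (0.79 ± 0.13) and Mt2 (0.70 ± 0.12) had the smallest p. Most of these genes answer to other signals as well. The count of lower genes was 2 to 4 on leaving out 1 array, with 2 without BSA 2.

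The lists for thyroid hormone and retinoic acid had medians of 0.062 (-0.27 under scaling to hybridisation controls) and -0.35. Of 8 tested thyroid hormone genes 1 fell (12.5%, against 12.3% lower among all genes), the calcium pump gene Atp2a1 (-0.60 ± 0.18, adjusted p = 0.0375), which kept its call only in the absence of BSA 3 (highest adjusted p = 0.106). The deiodinase gene Dio2 was at -0.58 ± 0.25 (adjusted p = 0.126), Klf9 at 0.41 ± 0.21 and the slow myosin gene Myh7 at -0.70 ± 0.46. Of 18 retinoid genes only 4 were tested and 0 passed (1 at an unadjusted p under 0.05). They were the binding protein gene Crabp2 (-0.66 ± 0.24, adjusted p = 0.0725), the transglutaminase gene Tgm2 (-0.53 ± 0.30), the retinol dehydrogenase gene Rdh10 (-0.17 ± 0.18) and the retinoic acid hydroxylase gene Cyp26a1 (-0.17 ± 0.35). Without BSA 3 or palmitate 3 there was 1 lower gene.

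Immediate-early genes known to respond to CREB, like those of the NR4A family, were higher in 10 of 13 cases with 0 lower (76.9%, against 7.92% higher among all genes), at a median of 1.15 (-0.051 over all genes). Atf3 (2.51 ± 0.19), Fos (2.20 ± 0.19), Egr1 (1.23 ± 0.14) and Ier2 (1.29 ± 0.18) had the smallest p (adjusted p up to 0.000431). Nr4a1, at 1.20, lay close to the median of this list. Whether CREB had a part in any of these changes was not tested.

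**Figure D5:**
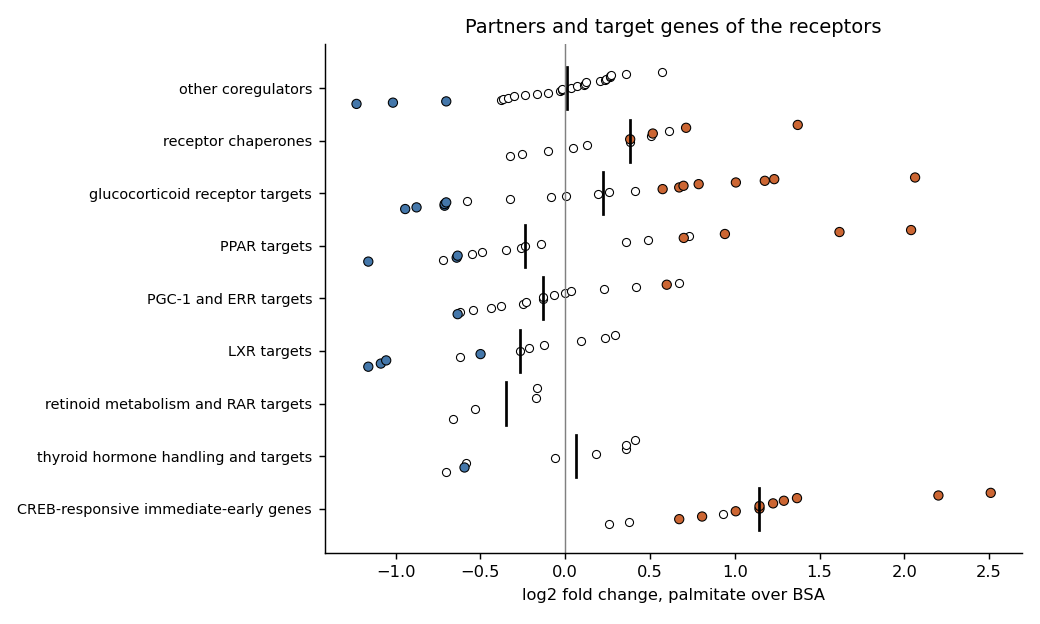
Log2 fold change, palmitate over BSA, of each tested gene (points) in 9 lists of receptor partners and target genes, with filled points past the threshold and a bar at the median of each list. The immediate-early list lies to the right of 0 and the LXR list has 4 filled points, all to the left.

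Array scaling bears on the direction of the smaller values. The 9 spiked hybridisation control probe sets had a mean log2 signal of 12.82 ± 0.13 with BSA and 13.15 ± 0.14 with palmitate (SD, n = 3, exact permutation p = 0.1, two-sided, the smallest possible). Scaling to these controls lowered every log2 fold change by the same amount and moved the median of all tested probe sets from -0.0083 to -0.34. Nr4a1 (0.86, adjusted p = 0.0164) and Nr2c2ap (0.76, adjusted p = 0.0408) kept their calls, as did Thra and Vdr. Relative to that shifted median no value changed, but 5 more genes counted as lower, namely Ncoa1 (-0.89), Nr2f1 (-1.41), Nr2f2 (-1.02), Nr3c1 (-0.77) and Ppargc1b (-0.91), and Pprc1 went to 0.20 (adjusted p = 0.548). Of all calls 44.9% were higher as deposited and 11.3% under this scaling. Under it the calls of Hsp90aa1, Dnaja1, Hspa8, Mt1, Mt2, Pdk4 and Vegfa were lost (adjusted p = 0.0576 to 0.829). Under median, 75th percentile and quantile scaling Pprc1 passed, with adjusted p from 0.0407 to 0.0493. For the Gapdh control, a measure of RNA integrity, the log2 signal of the 3′ probe set minus that of the 5′ was -0.20 on palmitate 2 and 0.19 to 0.35 on the other 5 arrays, and its part in the results was not tested beyond leaving it out.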

How the data were processed

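Affymetrix mouse 430A 2.0 arrays were measured for 3 BSA and 3 palmitate samples. The authors deposited linear intensities, 1 MAS 5 signal per probe set per the submitters' processing notes. Settings of MAS 5 are not given in the sources used here. On these arrays the trimmed mean was 1499.9 throughout, so signals had been scaled to 1 average, which hides a change shared by most transcripts. Here log2 of each signal was taken without an offset. Probe sets with a mean log2 signal over the 40th percentile (13575 of 22626) were tested by limma 3.58.1 in R 4.3.3 (lmFit, eBayes with an intensity trend, two-sided, Benjamini-Hochberg over all of them, threshold 0.05), which was tested on simulated data. Only probe sets with 1 symbol (20380) were named, and all 79 member symbols matched RefSeq. For gene counts the brightest probe set, by mean log2 signal, stood for its gene.

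Members and gene lists were chosen with earlier results of these data known. Named were every member past the threshold, 16 listed genes wherever measured, other members by value or status, and of each list up to 4 genes with the smallest p and all past the threshold where they were 5 or fewer. Alternatives changed the scaling, offset, filter, probe set rule, variance model, replicate block and arrays used. No 2 arrays held identical values. Depth does not apply to arrays, and their number limits precision. No scan date or other batch label was used here. Upstream sequences came from RefSeq GRCm38.p6.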

Additional observations from a re-analysis of the deposited data

How the results depend on the processing

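Of 662 alternative values of the 41 tested member probe sets, 635 kept their call or stayed uncalled, 20 became significant, 7 lost significance (all of the second Thra probe set, among them the unfiltered fit at an adjusted p of 0.0654 and the fit without a trend at 0.0562) and 0 reversed after a call. Nr4a1, Nr2c2ap, Vdr (both probe sets) and the first Thra probe set kept their calls under every alternative run in which they were tested. Hybridisation control scaling gave 7 member genes and 12 member probe sets lower, and 404 probe sets higher and 3169 lower over all probe sets. Averaging probe sets gave 3 member genes higher (Pprc1 added) and 4 lower (Thra, Vdr, Ncoa1 and Ppargc1b), and the 60th percentile filter gave 3 member probe sets higher (Pprc1 added) and 2 lower, with fewer values tested in both. Leaving out 1 array gave 2 member genes higher each time and 2 to 3 lower, 3 to 6 member probe sets lower, and over all probe sets 746 to 1085 higher and 833 to 1282 lower, both lowest without BSA 2. The same-numbered samples did not deviate together (correlations -0.23, -0.13 and 0.0091), so the numbers were not taken as pairs. With the replicate block the members had 2 genes higher and 2 lower, and 5 probe sets lower (the second of Nr2f6 added, adjusted p = 0.0495), and all probe sets gave 855 higher and 1118 lower. The counts of the gene lists moved by more than 1.5 times under several settings, as for receptor chaperones (1 higher after hybridisation control scaling), PPAR targets (7 lower there and 1 without BSA 2) and PGC-1 and ERR targets (7 lower there). Dim members gave 0 calls with limma when the filter was dropped (3 at an unadjusted p under 0.05, lowest adjusted p 0.0963, of a probe set of Nr5a2).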

Other observations

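Dim probe sets of the liver receptor homologue Nr5a2, which was chosen here after its values were seen, read higher on all palmitate arrays on a pair of its 4 probe sets. On the weaker of the pair the signals were 39.7, 24 and 18.6 with BSA and 152, 233 and 95.2 with palmitate, and on the brighter they were 48.2, 10.4 and 87.5 against 273, 99.9 and 193. On the brightest of the 4 they were 129, 148 and 116 against 82.3, 127 and 199, with a log2 difference of -0.032. All lie below the filter. In the fit without a filter the pair had adjusted p of 0.0963 and 0.183 in the order given.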
